A study of Mus musculus with 6 samples.

Results

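Il10, Socs1, Socs3, Tnfaip3, Tnip1, Irak3, Inpp5d, Dusp1 and Zfp36 encode negative regulators of Toll-like receptor (TLR) signalling, and their messages were followed across naive, LPS-stimulated and tolerized mouse macrophages. The 9 genes were taken by symbol, and each had 1 row among the 23699 rows of each expression table. Peritoneal macrophages, the phagocytes of the abdominal cavity, came from C57Bl/6 mice that either had the wild-type genotype (WT) or the genotype miR-221/222 -/Y (KO), males that lack this X-linked pair of microRNA genes. Naive cells were untreated. LPS cells received lipopolysaccharide (LPS), the Gram-negative cell wall component that signals through TLR4, at 1000 ng/ml for 4 h. Tolerized cells first met 10 ng/ml LPS for 15 h, were washed, rested for 2 h and then received the same 1000 ng/ml for 4 h. All 3 conditions were measured in both genotypes, with 1 poly-A RNA-seq library for each of the 6 groups. The design text speaks of triplicates, and whether a library pools them, or how many animals gave its cells, is not given in the sources used here. The series is titled for control of the tolerized response by miR-222, so the comparisons ask what LPS changed in these regulators, what earlier LPS changed, and whether either differed in KO cells.

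Engagement of TLR4 by LPS recruits the adaptor MyD88 and the kinases IRAK4 and IRAK1, activates the ubiquitin ligase TRAF6, and ends in NF-kappaB, MAP kinase and interferon responses. Negative regulators act at each level of this cascade. IL-10 is a secreted cytokine that restrains macrophages through STAT3, SOCS1 and SOCS3 block JAK kinases at cytokine receptors, A20 (Tnfaip3) and its partner ABIN1 (Tnip1) act on ubiquitin chains, and IRAK-M (Irak3) is a kinase-inactive IRAK. SHIP1 (Inpp5d) removes a phosphate from the lipid product of PI3-kinase, DUSP1 dephosphorylates p38 and JNK, and tristetraprolin (Zfp36) binds AU-rich elements in cytokine messages and leads them to decay. Several of these genes are themselves known LPS targets in macrophages, and tolerance is the altered response of cells that have met LPS before.

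The microRNAs that the KO cells lack are shown first, because the genotype comparison rests on them. The mature 3p arms, from RefSeq on GRCm38.p6, lie on the minus strand at chrX:19146307-19146329 and chrX:19146901-19146923. Capitals mark the seed, bases 2 to 8, which both share.
mmu-miR-221-3p: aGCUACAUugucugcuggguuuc
mmu-miR-222-3p: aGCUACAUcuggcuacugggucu
The DNA match to this seed, ATGTAGC, was absent from the annotated 3′ UTR of all 9 regulators, taken as 1 transcript per gene on GRCm38. Among 21010 protein-coding genes 9.45% held it, and among the 9010 tested genes with a 3′ UTR 11.1% did. The UTRs of the 9 were 690 (Dusp1) to 1993 (Socs1) bases long.

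Their 3′ UTRs did hold the core of the AU-rich element to which tristetraprolin binds, TATTTAT on the message strand. It occurred in 5 of 9, with 4 matches in Il10, 3 in each of Dusp1 and Zfp36, and 2 in each of Socs3 and Tnfaip3. The share over all protein-coding genes was 27.6%, and 30.4% over tested genes. A match in each of 3 genes is shown with its flanks, in capitals the match, since these genes encode both the decay factor and regulators that carry its motif. They lie at chr1:131024385-131024413 (plus strand), chr17:26506159-26506187 and chr7:28376966-28376994 (minus strand) on GRCm38.
Il10: tctctccgaaaTATTTATtacctctgata
Dusp1: gagctggtcctTATTTATttaacaccccc
Zfp36: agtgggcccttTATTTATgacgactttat
Socs1, Tnip1, Irak3 and Inpp5d had no match in the annotated UTR.

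Promoters, 250 bases before to 50 after the start site in RefSeq on GRCm38.p6, were found for 8 of the 9 genes, 10 promoters in all; Il10 was not matched. They were searched on both strands for 5 motifs, chosen after the sequences had been seen, and overlapping matches were joined. The motifs were the NF-kappaB site (kappaB), the STAT site TTCNNNGAA (GAS), the interferon-type repeat GAAANNGAAA, the cAMP response element TGACGTCA (CRE) and the PU.1 site GAGGAAGT. Stretches around a match in 5 genes are shown, with the match in capitals, to give an example of every motif but GAS. On the minus strand they are chr16:10785559-10785664 (Socs1), chr10:19015368-19015467 (Tnfaip3), chr11:54962942-54963043 (Tnip1) and chr17:26508563-26508660 (Dusp1), and on the plus strand chr1:87620247-87620344 (Inpp5d).
Socs1: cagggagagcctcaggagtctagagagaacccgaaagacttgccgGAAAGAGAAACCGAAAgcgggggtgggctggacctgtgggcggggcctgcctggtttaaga
Tnfaip3: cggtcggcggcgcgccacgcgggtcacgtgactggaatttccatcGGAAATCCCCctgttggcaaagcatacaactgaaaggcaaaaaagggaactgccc
Tnip1: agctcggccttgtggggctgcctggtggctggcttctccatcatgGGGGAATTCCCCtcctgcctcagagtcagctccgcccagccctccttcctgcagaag
Dusp1: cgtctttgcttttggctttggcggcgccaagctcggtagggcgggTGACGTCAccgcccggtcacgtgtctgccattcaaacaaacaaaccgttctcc
Inpp5d: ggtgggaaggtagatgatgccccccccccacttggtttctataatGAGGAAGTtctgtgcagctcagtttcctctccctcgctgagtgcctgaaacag
The capitals span positions -83 to -68 in Socs1 (joined interferon-type repeats), -12 to -3 in Tnfaip3 and -58 to -47 in Tnip1 (kappaB), -143 to -136 in Dusp1 (CRE) and -20 to -13 in Inpp5d (PU.1), counted from the start site. Tnfaip3 held another kappaB match at -125 to -116, and GAS matches stood at -154 to -146 in Socs3, -199 to -191 in Tnip1 and -17 to -9 in Zfp36. Of all 32851 promoters of that length, 8.46% held kappaB, 8.30% GAS, 3.44% the interferon-type repeat, 3.20% PU.1 and 1.79% CRE. Irak3 held none of the 5. A match describes letters in the window and is not a measured binding site.

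The deposited values are FPKM, fragments per kilobase of transcript scaled to mapped fragments, each with a lower and upper bound that covers counting error only. From the widths of these bounds the libraries held an estimated 17.6 M to 24.9 M fragments, and the median bound lay 5.03% to 5.97% from values of 10 FPKM or more. The regulators rested on an estimated 29 (Il10 in naive WT cells) to 47302 (Tnfaip3 in KO LPS cells) fragments. All 8 macrophage markers were present in every library, with a sum of 11639 to 48949 FPKM, most of it from Lyz2. B cell markers, 8 of 8 present, summed to 281 to 793 FPKM, and T and NK cell markers to 12.8 to 41.1 FPKM. Mast cell and eosinophil markers summed to 77.2 to 134 FPKM, most of it from Tpsb2. Neutrophil markers summed to 66.2 to 348 FPKM, nearly all from S100a8, with Ngp and S100a9 listed at 0 throughout. Mir221 and Mir222 were listed at 0 in all 6 libraries, WT included. Mature microRNAs have no poly-A tail and are not captured by this protocol, so those rows do not check the genotype.

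LPS raised most of these regulators and lowered 1. Conditions were tested with limma over 10139 genes, on log2(FPKM + 1) with genotype and condition as terms, and a gene is said to rise or fall when its Benjamini-Hochberg adjusted p was under 0.05. Each condition then has 2 libraries, 1 WT and 1 KO. The spread behind a p-value holds differences of the condition effect between the genotypes as well as noise, which may be technical. It is also moderated toward a trend over all genes tested. Biological spread within a group is not measured. In LPS against naive cells 6 of the 9 rose (Il10, Socs1, Socs3, Tnfaip3, Tnip1 and Zfp36) and 1 fell (Inpp5d), where 8.74% of all tested genes rose and 54.4% fell. Their median log2 difference was 2.13, and that of all tested genes -0.76. In tolerized against LPS cells 1 rose (Inpp5d) and 1 fell (Zfp36), against 36.8% and 4.32% of all genes, with medians of -0.18 over the 9 and 0.51 over all genes. In tolerized against naive cells 7 rose (Il10, Socs1, Socs3, Tnfaip3, Tnip1, Irak3 and Dusp1) and none fell, against 7.41% and 19.7%, with medians of 1.96 and -0.22. Without the filter on low genes 4 of these 7 passed, and Tnip1 (adjusted p = 0.0637), Irak3 (adjusted p = 0.0678) and Dusp1 (adjusted p = 0.0544) did not. The shares of all tested genes given here are also the background for the list counts below.

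The all-gene medians away from 0 bear on these values. With the libraries rescaled by a median of ratios, which brought the all-gene medians close to 0, 8 rose and 1 fell in LPS against naive cells, 1 rose and 2 fell in tolerized against LPS cells, and 7 rose in tolerized against naive cells. Over all genes the rescaled calls were 2292 up and 2458 down, 898 up and 941 down, and 960 up and 1153 down in that order. In bulk RNA, fewer cells of a type and less RNA per cell cannot be told apart.

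**Figure D1:**
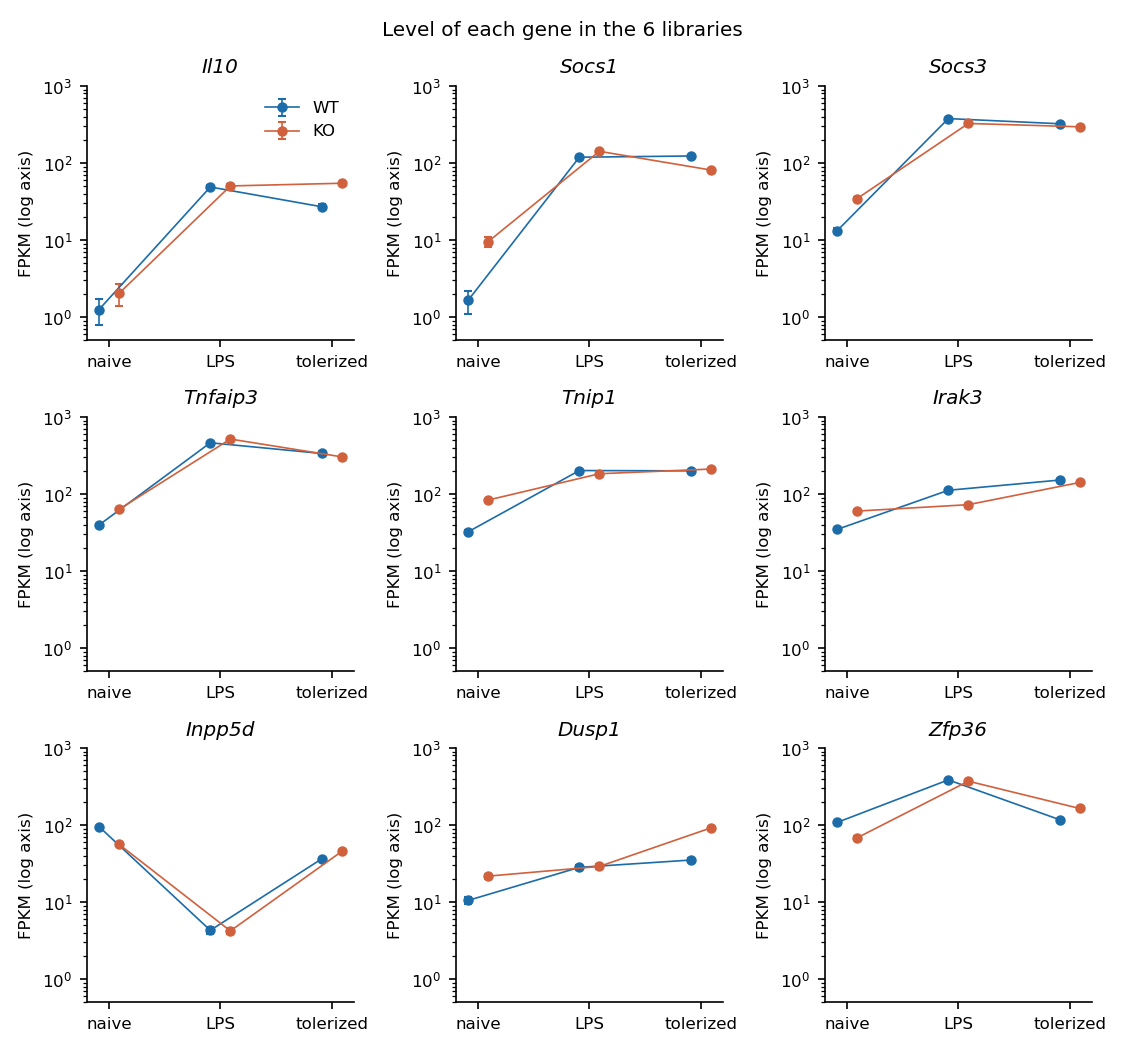
FPKM (log axis) of each of the 9 regulators in naive, LPS and tolerized cells of WT (blue) and KO (orange) mice, 1 library per point, with bars for the deposited bounds, which cover counting error only. Inpp5d dips to 4.31 and 4.23 FPKM with LPS, while Il10, Socs1, Socs3 and Tnfaip3 climb from naive to LPS cells in both genotypes.

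FPKM is scaled per length, so levels can be ordered across genes. In naive WT cells Zfp36 (108 FPKM) and Inpp5d (95.5 FPKM) led, and Socs1 (1.65 FPKM) and Il10 (1.26 FPKM) were lowest, with overlapping bounds for that last pair. In LPS cells of WT mice Tnfaip3 led at 463 FPKM, followed by Zfp36 (386 FPKM) and Socs3 (378 FPKM), whose bounds overlap, and Inpp5d was lowest at 4.31 FPKM. In tolerized WT cells the order began with Tnfaip3 (336 FPKM), Socs3 (324 FPKM) and Tnip1 (200.1 FPKM). In naive KO cells Tnip1 (83.6 FPKM) led, followed by Zfp36 (68.2 FPKM) and Tnfaip3 (63.3 FPKM), whose bounds overlap, and Tnfaip3 also overlapped with Irak3 (60.2 FPKM). KO cells with LPS again had Tnfaip3 (517 FPKM), Zfp36 (371 FPKM) and Socs3 (327 FPKM) at the top and Inpp5d (4.23 FPKM) at the bottom.

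Il10 (chromosome 1, 132916422 to 132921547, mm9, as for the other whole-gene positions) encodes the anti-inflammatory cytokine of the set. Its level was 1.26, 49.0 and 27.1 FPKM in naive, LPS and tolerized WT cells and 2.04, 50.5 and 54.7 FPKM in KO cells. Both naive libraries lay far below the other 4, and in WT but not in KO cells the tolerized value lay below the LPS value beyond the bounds. Il10 rose by 4.28 ± 0.27 with LPS on the log2 scale (SE, adjusted p = 0.000358), and tolerized cells stood 3.92 above naive cells (adjusted p = 0.00174). Tolerized against LPS cells differed by -0.36 ± 0.27 (adjusted p = 0.315). The IL-10 receptor and its signalling genes moved less: of 9 tested, 1 rose and 1 fell with LPS, with a median of -0.05. Nfil3, a STAT3-induced transcription factor, rose by 0.77 (adjusted p = 0.0443), and Tyk2, a JAK-family kinase, fell by 1.00 (adjusted p = 0.00463). After rescaling 5 rose and none fell. Stat3 itself had 40.7, 53.7 and 72.0 FPKM in WT and 47.4, 98.0 and 79.0 FPKM in KO naive, LPS and tolerized cells (LPS against naive 0.71, adjusted p = 0.0516). In tolerized against LPS cells 1 of 9, Tyk2, rose (0.82), against 1 that fell after rescaling, and in tolerized against naive cells 0 passed in either direction as deposited and 1 rose after rescaling.

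Socs1 (chromosome 16, 10783902 to 10785629) encodes an inhibitor of JAK kinases that limits interferon signalling. It stood at 1.65, 119 and 124 FPKM in WT and at 9.53, 142 and 81.3 FPKM in KO naive, LPS and tolerized cells, the widest range of the 9 at 86.3-fold. Naive libraries were the lowest in both genotypes and did not overlap the rest, and the bounds of the tolerized and LPS values overlapped in WT but not in KO cells. Socs1 rose by 4.63 ± 0.57 with LPS (adjusted p = 0.00108) and was 4.26 above naive in tolerized cells (adjusted p = 0.00535). Its difference between tolerized and LPS cells was -0.37 ± 0.57 (adjusted p = 0.62).

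Socs3 (chromosome 11, 117827401 to 117830680), the inhibitor that binds the IL-6 receptor chain gp130, had 13.2, 378 and 324 FPKM in WT and 34.5, 327 and 296 FPKM in KO naive, LPS and tolerized cells. The lowest of the 4 stimulated libraries (296 FPKM) lay far above the higher naive one (34.5 FPKM). The LPS rise was 3.97 ± 0.41 (adjusted p = 0.000725) and the tolerized rise over naive 3.79 ± 0.41 (adjusted p = 0.00356), with -0.18 ± 0.41 between tolerized and LPS cells (adjusted p = 0.745). After rescaling, the tolerized library lay below the LPS library by -0.77 in WT and -0.80 in KO cells. Of 6 other SOCS family genes, 1 rose and 2 fell with LPS (median -0.25), or 2 and 0 after rescaling. Cish, another JAK-STAT feedback inhibitor, rose by 3.41 ± 0.66 (adjusted p = 0.00522). It went from 1.94 to 84.7 FPKM in WT cells, and in KO cells from 4.77 to 21.3 FPKM. Socs6 fell by 0.99 and Socs5 by 0.78. From LPS to tolerized cells Socs4 alone of the 6 rose (0.67, adjusted p = 0.0336), and 0 of the 6 rose or fell after rescaling.

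Of the receptors and kinases on which SOCS1 and SOCS3 act, 5 of 8 fell with LPS and 1 rose (median -1.20), although only 1 fell and 1 rose after rescaling. The count that fell is near the 54.4% of all tested genes that did. Il6ra, the IL-6 binding chain, fell by 3.29 ± 0.36 (adjusted p = 0.000781). Its WT level was 25.1 FPKM in naive and 0.846 FPKM in LPS cells, and its KO level 9.97 and 0.612 FPKM. Ifngr1, a chain of the interferon-gamma receptor, fell by 1.70 (adjusted p = 0.00465) and Csf3r, the G-CSF receptor, by 1.47 (adjusted p = 0.00757). Tolerized over LPS cells, 3 of 8 rose and none fell, with Il6ra at 2.17 and Ifngr2 at 1.01, while after rescaling 1 rose and 1 fell. The share that rose is close to the 36.8% of all tested genes.

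Tnfaip3 (chromosome 10, 18720717 to 18735216) encodes A20, which edits ubiquitin on TRAF6 and RIPK1. It was measured at 39.6, 463 and 336 FPKM in WT and 63.3, 517 and 304 FPKM in KO naive, LPS and tolerized cells. In both genotypes LPS cells were highest, tolerized cells next and naive cells lowest, with no overlap of bounds. Tnfaip3 rose by 3.26 ± 0.29 with LPS (adjusted p = 0.000551) and by 2.65 in tolerized against naive cells (adjusted p = 0.00362). Between tolerized and LPS cells it differed by -0.61 ± 0.29 (adjusted p = 0.138). After rescaling that difference was -1.21 and passed the threshold (adjusted p = 0.0362).

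Tnip1 (chromosome 11, 54724289 to 54776442) encodes ABIN1, the ubiquitin-binding partner of A20. Its levels were 32.3, 202 and 200.1 FPKM in WT and 83.6, 184 and 211 FPKM in KO naive, LPS and tolerized cells. The 4 stimulated libraries lay close together, and naive KO cells had 2.59 times the level of naive WT cells. The rise with LPS was 1.87 ± 0.39 (adjusted p = 0.00717) and over naive in tolerized cells 1.96 ± 0.39 (adjusted p = 0.0163). Without the WT LPS library the LPS difference was 1.44 and missed the threshold (adjusted p = 0.0553). Tolerized and LPS cells differed by 0.09 ± 0.39 (adjusted p = 0.864, 95% interval -0.86 to 1.05), a value that changed sign to -0.51 after rescaling.

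Of 10 other A20 partners and deubiquitinases, 4 rose and 3 fell with LPS (median -0.15), or 6 and 0 after rescaling. Usp18, which removes the interferon-induced modifier ISG15, rose by 5.26 ± 0.27 (adjusted p = 0.000341). WT cells went from 8.63 to 328 FPKM and KO cells from 12.2 to 561 FPKM. Usp25 rose by 1.61, Tnip3 by 0.98 and Rnf11, a member of the A20 complex, by 0.92. In tolerized against LPS cells 3 fell and 1 rose, or 4 and 0 after rescaling. Usp18 fell by 2.14 (adjusted p = 0.00767), Usp25 by 1.15 and Rnf11 by 0.81, while Cyld, another deubiquitinase of the pathway, rose by 0.77. Against naive cells, tolerized cells had 1 rise, Usp18 (3.11, adjusted p = 0.0023), and no fall, also after rescaling.

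Irak3 (chromosome 10, 119578710 to 119638593) encodes IRAK-M, which holds the receptor-proximal IRAK complex in place. It had 34.8, 112 and 152 FPKM in WT and 60.2, 72.9 and 141 FPKM in KO naive, LPS and tolerized cells. The order naive, LPS, tolerized was the same in both genotypes, but the LPS value of KO cells lay close to their naive value. The LPS difference of 0.97 ± 0.35 missed the threshold (adjusted p = 0.052), and it passed after rescaling (1.81, adjusted p = 0.00749) and under 7 other alternatives. Tolerized cells rose by 1.66 ± 0.35 above naive cells (adjusted p = 0.0194). Without the WT naive library this value was 1.09 and missed the threshold (adjusted p = 0.0616). The tolerized against LPS difference was 0.69 ± 0.35 (adjusted p = 0.159).

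Of the 11 genes of the proximal pathway on which IRAK-M and A20 act, 3 rose and 3 fell with LPS (median -0.09), or 6 and 0 after rescaling. Cd14, the LPS co-receptor, rose by 1.89 ± 0.47 (adjusted p = 0.0131) and Myd88 by 1.65 ± 0.24 (adjusted p = 0.00186). The kinase genes Irak4 and Irak1 fell by 1.39 and 1.33 (adjusted p = 0.00281 and 0.00196). Between LPS and tolerized cells Myd88 fell by 0.89 and Irak2 by 0.75, and Irak4 rose by 0.72; after rescaling 2 fell and none rose. Tlr4 itself had 16.0, 12.2 and 27.9 FPKM in WT and 22.3, 14.6 and 16.0 FPKM in KO naive, LPS and tolerized cells (tolerized against LPS 0.62, adjusted p = 0.163). Against naive cells, Irak1 fell in tolerized cells (0.73 lower, adjusted p = 0.0396) and no gene of the 11 rose, but after rescaling 2 rose and none fell.

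Other inhibitors sit at or near the receptors. Of 10 tested, 4 fell and 1 rose with LPS (median -0.43), or 4 and 3 after rescaling. Cd300a, an inhibitory receptor, fell by 3.63 ± 0.44 (adjusted p = 0.00107), Tnfaip8l2 (TIPE2) by 3.26 ± 0.32 and Cd200r1, the receptor for CD200, by 2.44 ± 0.19. Trafd1, an interferon-induced inhibitor, rose by 1.82 ± 0.27. Cd300a, Cd200r1 and Tnfaip8l2 also fell in tolerized against naive cells, by 3.72, 2.89 and 2.17, and 3 of the 10 also fell there after rescaling. From LPS to tolerized cells 3 rose, among them Sirpa at 1.57 and Tnfaip8l2 at 1.10, and Trafd1 fell by 1.59; after rescaling 1 rose and 2 fell.

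Inpp5d (chromosome 1, 89516887 to 89617083), encoding the lipid phosphatase SHIP1, had the opposite course. Its levels were 95.5, 4.31 and 36.4 FPKM in WT and 56.2, 4.23 and 45.4 FPKM in KO naive, LPS and tolerized cells. Naive cells were highest, LPS cells lowest and tolerized cells between them in both genotypes, with no overlap of bounds. Inpp5d fell by 3.82 ± 0.29 with LPS (adjusted p = 0.000433), 14.1-fold on the FPKM + 1 scale, where all tested genes had a median of -0.76. It rose by 2.98 ± 0.29 from LPS to tolerized cells (adjusted p = 0.00692), 7.91-fold, where the all-gene median was 0.51. Tolerized cells differed from naive cells by -0.84 ± 0.29 (adjusted p = 0.0806), and without the KO naive library by -1.29, past the threshold (adjusted p = 0.0244). B cells also express Inpp5d, and the summed B cell markers were 793, 322 and 499 FPKM in WT and 593, 281 and 623 FPKM in KO naive, LPS and tolerized cells, all 8 being present. With LPS 5 of these 8 fell, beside 54.4% of all tested genes, and after rescaling 4 fell and 2 rose. In tolerized against LPS cells 5 rose, beside 36.8% of all tested genes, and after rescaling 2 did. Their part in the Inpp5d values was not tested.

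Inositol and tyrosine phosphatases and their adaptors act beside SHIP1 in immune receptor signalling. Of 11 tested, 8 fell and 1 rose with LPS (median -1.30), or 5 and 2 after rescaling. Of all tested genes 54.4% fell and 8.74% rose as deposited. Dok2 and Dok3, inhibitory adaptors of immune receptors, both fell (adjusted p = 0.000423 and 0.000615). Dok2 went from 32.2 to 3.87 FPKM in WT and 38.6 to 3.22 FPKM in KO cells, and Dok3 from 73.2 to 13.8 FPKM and 68.0 to 14.0 FPKM. Ptpn22, a tyrosine phosphatase of leukocytes, fell by 2.97 ± 0.28 and Inppl1, the paralogue SHIP2, by 1.73 ± 0.30. In tolerized against LPS cells 7 of 11 rose, beside 36.8% of all tested genes, and none fell (median 1.12). Dok2 (1.98), Ptpn22 (1.79), Ptpn6 (SHP-1, 1.31) and Inppl1 (1.29) led, but after rescaling 2 of the 11 rose and 1 fell. Ptpn22, Dok3 and Dok2 were still lower in tolerized than in naive cells, by 1.19, 1.10 and 1.02, and Ptpn2 rose by 0.75, while after rescaling 1 rose and 1 fell.

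Dusp1 (chromosome 17, 26642536 to 26645417), the phosphatase of p38 and JNK, had 10.5, 28.3 and 35.2 FPKM in WT and 21.7, 29.1 and 91.7 FPKM in KO naive, LPS and tolerized cells. The tolerized KO library stood apart at 2.61 times the tolerized WT level, and the LPS libraries of both genotypes overlapped. The differences of 0.87 ± 0.33 with LPS (adjusted p = 0.0596) and 0.97 ± 0.33 from LPS to tolerized cells (adjusted p = 0.0599) missed the threshold. The LPS difference passed after rescaling (1.69, adjusted p = 0.00762) and without the WT tolerized, KO LPS or KO tolerized library (adjusted p = 0.0279, 0.0137 and 0.0264). The difference from LPS to tolerized cells passed without the WT LPS or the WT tolerized library (adjusted p = 0.0415 and 0.0307). Dusp1 rose by 1.84 ± 0.33 in tolerized against naive cells (adjusted p = 0.0121), and missed the threshold without the WT naive library (1.70, adjusted p = 0.0544).

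Of 9 other dual-specificity phosphatases, 5 rose and 3 fell with LPS (median 1.17), the same counts as after rescaling. Dusp16, which acts on JNK, rose by 2.66 ± 0.22 (adjusted p = 0.000483), Dusp2 by 2.40 ± 0.31 and Dusp4 by 2.14 ± 0.41, and Dusp3 fell by 2.61 ± 0.24. In tolerized against naive cells 5 rose and 1 fell under either scaling, with Dusp16 at 2.87, Dusp4 at 1.89, Dusp5 at 1.49 and Dusp3 at -1.55. After tolerization, relative to LPS, Dusp6, the ERK phosphatase, rose by 1.89, Dusp7 by 1.12 and Dusp3 by 1.07, and Dusp2 fell by 1.08; after rescaling 1 rose and 1 fell. Of 6 MAP kinase genes, 3 fell and 1 rose with LPS, beside 54.4% and 8.74% of all tested genes, or 1 and 2 after rescaling. Among them Mapk3 (ERK1) fell by 1.71 and Mapk14 (p38 alpha) by 1.31, and Mapkapk2, the kinase downstream of p38, rose by 1.66. Mapkapk2 remained 1.40 above naive in tolerized cells (adjusted p = 0.0333), where 1 of the 6 rose under either scaling.

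Zfp36 (chromosome 7, 29161803 to 29164247) encodes tristetraprolin, which binds AU-rich messages and promotes their decay. It stood at 108, 386 and 117 FPKM in WT and 68.2, 371 and 164 FPKM in KO naive, LPS and tolerized cells. The LPS libraries of both genotypes lay well above the other 4, and in WT cells the tolerized value was near the naive value. Zfp36 rose by 2.13 ± 0.33 with LPS (adjusted p = 0.00224) and fell by 1.44 ± 0.33 from LPS to tolerized cells (adjusted p = 0.0187). This fall missed the threshold without the WT LPS (adjusted p = 0.0818), the WT tolerized (-1.02, adjusted p = 0.132) or the KO LPS library (adjusted p = 0.0928), and when low genes were not filtered out (adjusted p = 0.0587). Tolerized cells differed from naive cells by 0.69 ± 0.33 (adjusted p = 0.172).

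Other mRNA decay factors split. Of 8 tested, 2 rose and 1 fell with LPS (median -0.08), or 6 and 1 after rescaling. Zc3h12a, the RNase regnase-1, rose by 2.65 ± 0.22 (adjusted p = 0.000497) and its relative Zc3h12c by 1.47 ± 0.31 (adjusted p = 0.00717). The tristetraprolin paralogue Zfp36l2 fell by 2.70 ± 0.22 (adjusted p = 0.000476). In tolerized against naive cells the same 3 genes passed, with Zc3h12a at 2.54, Zc3h12c at 1.73 and Zfp36l2 at -1.81. Relative to LPS cells, Zfp36l2 rose by 0.89 (adjusted p = 0.0227) and 0 of the 8 passed after rescaling.

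A list of 10 messages known to bind tristetraprolin was compared with the regulators across the same conditions. It was chosen with earlier results of these data known, so its counts do not describe such messages in general. All 10 (Tnf, Il6, Il1b, Il1a, Cxcl1, Cxcl2, Ccl3, Ptgs2, Csf2 and Il23a) rose with LPS, with a median of 7.5, and all 10 stayed above naive in tolerized cells, with a median of 6.33. From LPS to tolerized cells 2 fell and none rose (median -1.32), also after rescaling. Tnf, an early inflammatory cytokine, fell by 3.58 ± 0.71 (adjusted p = 0.0132). WT cells had 13818 FPKM with LPS and 1235 FPKM when tolerized, and KO cells 17407 and 1352 FPKM. Il23a, a subunit of IL-23, fell by 2.37 ± 0.39 (adjusted p = 0.00961), and tolerized cells kept 20.5% of its LPS level in WT and 13.2% in KO cells.

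**Figure D2:**
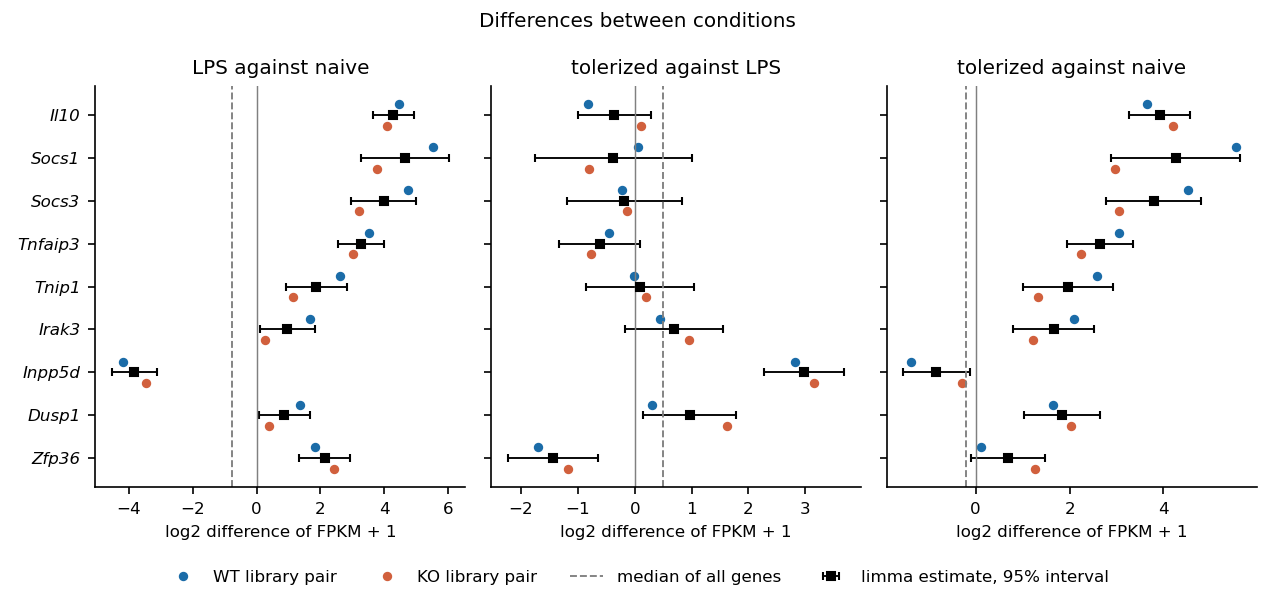
Log2 difference of FPKM + 1 (horizontal axis) for each regulator in 3 comparisons of conditions: WT and KO library pairs (blue and orange points), the limma estimate with its 95% interval (black), and the median of all genes (dashed). Inpp5d lies on the other side of 0 from the rest for LPS against naive and highest for tolerized against LPS, where the other estimates run from -1.44 (Zfp36) to 0.97 (Dusp1).

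The share of the LPS level that tolerized cells kept was computed per genotype from FPKM as deposited, with 1 library per value. Zfp36 stood at 30.4% in WT and 44.2% in KO cells, the lowest of the 9 in each. Socs3 kept 85.7% and 90.5%, Tnfaip3 72.6% and 58.8%, and Tnip1 99.1% and 115%. Il10 kept 55.4% in WT and 108% in KO cells, and Socs1 the reverse, 104% and 57.2%. After rescaling, the tolerized values of Il10, Socs1, Socs3, Tnfaip3 and Tnip1 lay below the LPS values in both genotypes. The rescaled log2 differences were -0.77 in WT and -0.80 in KO cells for Socs3, and -1.01 and -1.42 for Tnfaip3. Irak3 (136% and 194%), Dusp1 (124% and 316%) and Inpp5d (845% and 1074%) were above the LPS level in both genotypes, although for Irak3 and Dusp1 the WT pair lay below 0 on the log2 scale after rescaling (-0.11 and -0.23). Among the tristetraprolin-bound messages Tnf kept 8.94% and 7.77%, Il6 56.0% and 32.4%, and Ptgs2 92.4% and 70.0%.

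**Figure D3:**
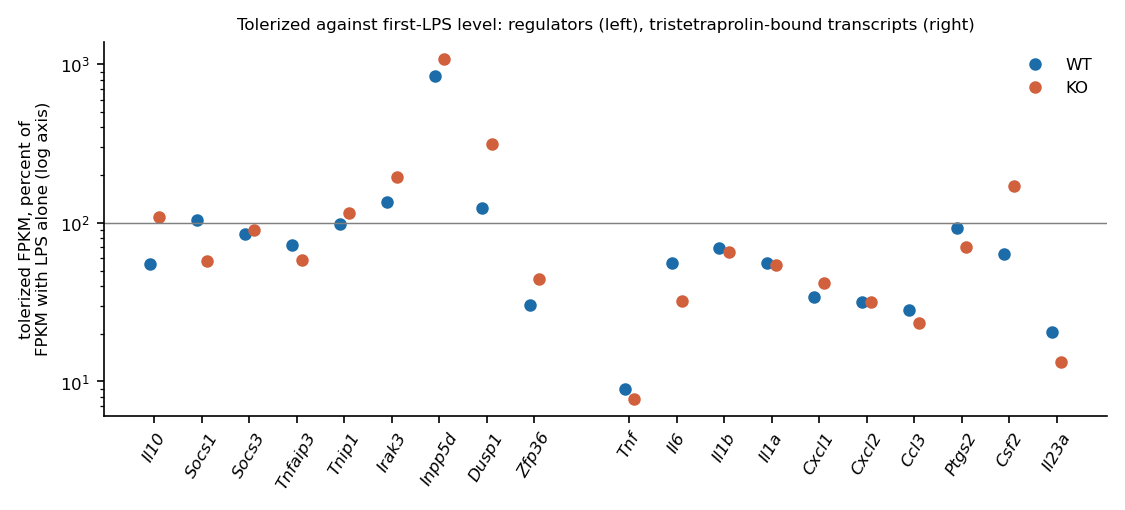
Tolerized FPKM as a percent of the FPKM with LPS alone (log axis, line where both are equal) in WT (blue) and KO (orange) cells, 1 library pair per point, for the 9 regulators on the left and 10 messages known to bind tristetraprolin on the right. Zfp36 is the lowest regulator at 30.4% and 44.2%, and Tnf the lowest message at 8.94% and 7.77%.

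**Figure D4:**
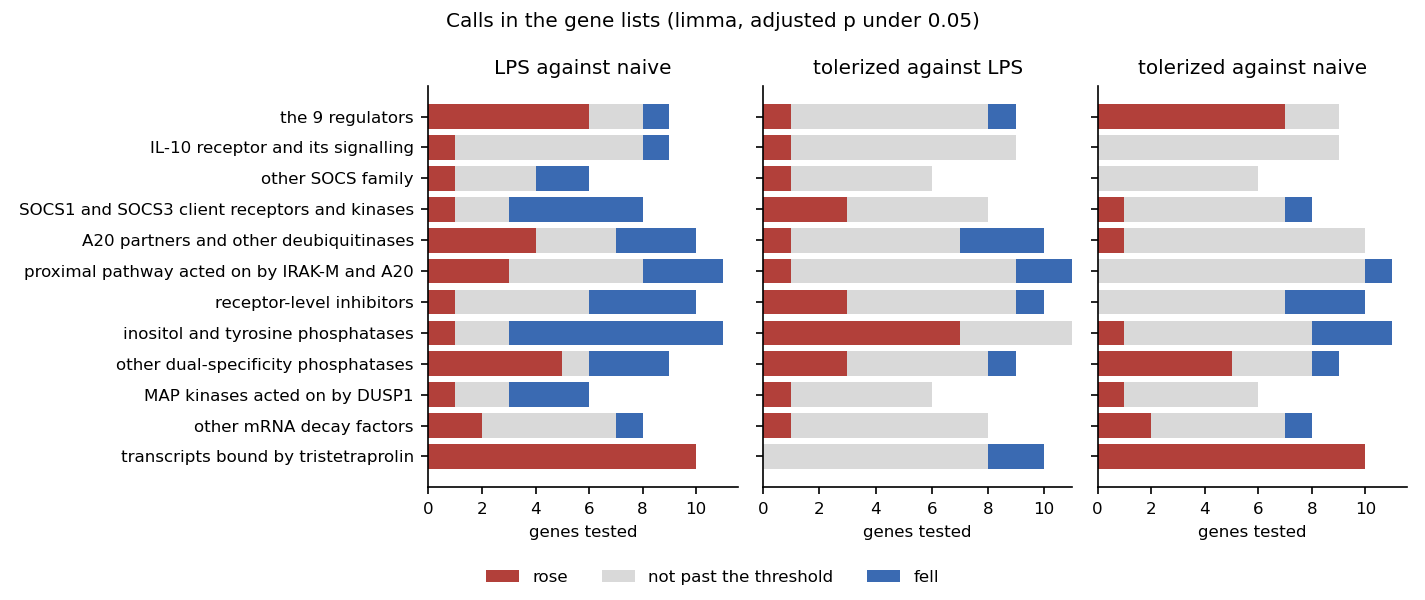
Number of tested genes (horizontal axis) that rose (red), fell (blue) or did not pass (grey) in the limma test of FPKM as deposited, for the 9 regulators and each pathway list in 3 comparisons of conditions. With LPS 8 of 11 inositol and tyrosine phosphatase genes fell, and 6 regulators rose and 1 fell. The 10 listed tristetraprolin-bound messages, chosen with earlier results known, all rose. Of all tested genes 54.4% fell and 8.74% rose with LPS.

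Within single library pairs, a difference of at least 2-fold on the log2(FPKM + 1) scale was counted without a test, since each group has 1 library. From naive to LPS cells 8 regulators were higher and 1 (Inpp5d) lower in WT, against 8.14% and 39.8% of genes. In KO cells 6 were higher and 1 lower, against 6.96% and 42.0%, with Irak3 (0.27) and Dusp1 (0.40) inside 2-fold. From LPS to tolerized WT cells 1 was higher (Inpp5d) and 1 lower (Zfp36), against 20.8% and 4.54%. In KO cells Inpp5d and Dusp1 were higher and Zfp36 lower, against 24.0% and 4.3%. From naive to tolerized cells 7 were higher and 1 lower in WT (7.95% and 16.8% of genes), and 8 higher and none lower in KO cells (6.32% and 13.2%). The WT and KO differences could not be tested against each other, because an interaction term would leave no residual degrees of freedom.

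No regulator passed the limma test between KO and WT over the 3 libraries of each genotype. None of the 10139 genes passed (0% called), 439 were higher and 268 lower at an unadjusted p under 0.05, and limma without a trend also called 0. Without the WT tolerized library 152 rose and 83 fell, and without the KO tolerized library 155 rose and 82 fell. Dusp1 had the largest difference, 0.79 ± 0.27 (unadjusted p = 0.0261, adjusted p = 0.596), and was higher in KO in 3 of 3 conditions, with overlapping bounds in LPS cells. Il10 differed by 0.49 ± 0.22 (adjusted p = 0.749), with a 95% interval of -0.04 to 1.01, and its KO and WT bounds were apart in tolerized cells but overlapped in naive and LPS cells. Socs1 differed by 0.55 (-0.57 to 1.67), Tnip1 by 0.43 (-0.35 to 1.21), Socs3 by 0.33 (-0.49 to 1.15) and Tnfaip3 by 0.23 (-0.35 to 0.81). Irak3 (0.02, -0.68 to 0.72), Zfp36 (-0.08, -0.73 to 0.57) and Inpp5d (-0.15, -0.73 to 0.42) had estimates nearest 0.

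By the median over the 9, the genotype pairs were furthest apart in naive cells, with 1 library pair per condition. There the absolute log2 difference had a median of 0.77 (range 0.43 to 1.99). The median was 0.14 with LPS (0.02 to 0.61) and 0.31 in tolerized cells (0.08 to 1.36). Il10 (0.43 naive, 0.99 tolerized) and Dusp1 (0.98 naive, 1.36 tolerized) were instead furthest apart in tolerized cells. Inpp5d (-0.75) and Zfp36 (-0.66) were lower in naive KO than in naive WT cells. In naive cells 3 were at least 2-fold higher in KO and none lower, against 3.95% and 3.12% of genes: Socs1 (1.99), Tnip1 (1.34) and Socs3 (1.32), with Dusp1 just inside at 0.98. Naive KO cells also had more of the tristetraprolin-bound messages, with Tnf at 220 against 28.7 FPKM and Il1b at 175 against 10.2 FPKM, and more S100a8 (166 against 65.2 FPKM). Whether these move with the regulators for a shared reason was not tested. With LPS none of the 9 was 2-fold apart (4.19% of genes were higher and 3.05% lower). In tolerized cells Dusp1 was higher in KO (1.36) and none lower (1.81% and 0.774% of genes), and Il10 lay just inside at 0.99.

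**Figure D5:**
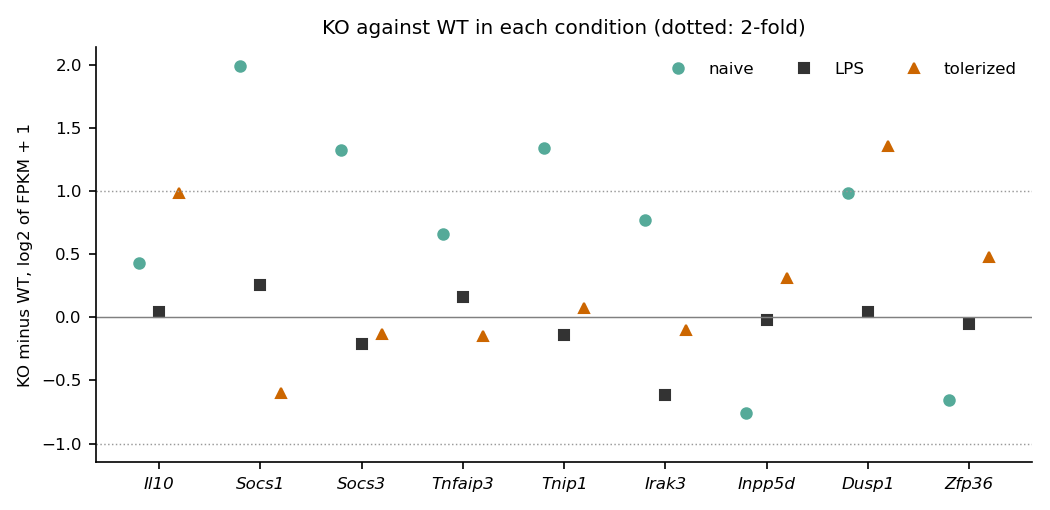
KO minus WT difference in log2(FPKM + 1) (vertical axis) for each regulator in naive (circles), LPS (squares) and tolerized (triangles) cells, 1 library pair per point, with dotted lines at 2-fold. LPS points lie within 0.61 of 0, while naive points reach 1.99 (Socs1) and the tolerized point of Dusp1 lies at 1.36.

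The 9 profiles were compared by the root mean square difference of log2(FPKM + 1) over the 6 libraries after each profile's mean was removed, over the 7311 genes that reached 10 FPKM in 1 library or more. Among the regulators Socs1 and Socs3 were closest (0.39) and Socs1 and Inpp5d furthest apart (3.58). The genes most like Il10 were Slfn1 (0.34), Xaf1 (0.35) and D14Ertd668e (0.43), like Socs1 were Socs3, Slc7a2 (0.41) and Zbp1 (0.44), and like Socs3 were Ier3 (0.21), Traf1 (0.26) and Socs1. Tnfaip3 was most like BC006779 (0.27), Hspa1a (0.28) and Gadd45b (0.28), and Tnip1 most like Cd38 (0.14), Nfkb2 (0.17) and Zc3h12c (0.22). Irak3 had Denr (0.13), Tubb6 (0.19) and Agrn (0.20) as its nearest, and Zfp36 had Ripk2 (0.17), Sp110 (0.22) and Sp140 (0.24). Inpp5d was nearest to Nfic (0.23), Chst12 (0.31) and AI467606 (0.32). Dusp1 was nearest to H2-T9 (0.17), H2-Q4 (0.19) and H2-T10 (0.28), MHC class I genes whose near-identical copies can share reads, so those values are uncertain. These are descriptions over 6 libraries.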

How the data were processed

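Each deposited table holds 1 library, with FPKM per gene between a lower and an upper bound, per the file headers. The submitters' processing notes name bcl2fastq 1.8.4, TopHat, Cufflinks and mm9. Which TopHat and Cufflinks versions and which annotation were used is not given in the sources used here. Poly-A enriched TruSeq libraries were made from total RNA, per the labels' protocols. Of 23699 rows, 349 not marked OK in a library, 712 rows of 248 repeated symbols and 787 rows of small RNA genes were left out, which left 22167, since some rows fall in more than 1 of these classes. Locus starts were counted from 1. FPKM carries no read counts: fragments were estimated from the bounds, taken as 2 standard errors on either side, and cover counting error only.

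Samples were grouped by title. Values were analysed as log2(FPKM + 1), which understates the change of low genes. Condition and genotype effects came from limma 3.58.1 in R 4.3.3 (lmFit and eBayes with a trend, two-sided) over the 10139 genes that reached 2 FPKM in 2 libraries or more, with 2 residual and 4.2 prior degrees of freedom and Benjamini-Hochberg adjustment over all of them. An effect found in 1 genotype only counts as spread in this fit. The code was tested on simulated data, with an LPS change given to 200 of 9614 genes. It recovered 6% of log2 changes of 1, 52% of changes of 2 and 88% of changes of 4, and called 2 other genes. In these data far more genes passed, so those shares may not carry over. A gene that missed the threshold is therefore not shown to be unchanged. Single library pairs were compared by size with no test, counting differences of 2-fold or more where a library of the pair reached 2 FPKM. Alternatives were another scaling (median of ratios, TPM), a pseudocount of 0.1, no filter, limma without a trend, no genotype term and leaving out each library.

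The 9 genes and the pathway and marker lists were chosen with earlier results of these data known. All 9 genes were named, and of each list the 2 to 4 genes with the largest limma difference in the comparison described; for each of the 9, the 3 most similar profiles were named. Il1b, Il6, Ptgs2 and S100a8 between the naive or tolerized libraries were named after their values were seen. 3′ UTRs, microRNAs and promoters were read from GRCm38, a later build than that of the tables, by symbol, and no coordinates were converted. Some list genes and 1 sequence are not reported here.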

Additional observations from a re-analysis of the deposited data

Results flagged for a closer look

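For 3 regulators the tolerized level lay on opposite sides of the LPS level in the 2 genotypes, on the log2(FPKM + 1) scale with 1 library per value, so each difference was not tested. Il10 was at -0.83 in WT and 0.11 in KO cells, and the bounds of the KO pair overlapped. Socs1 was at 0.05 in WT, with overlapping bounds, and -0.80 in KO cells. Tnip1 was at -0.01 in WT, with overlapping bounds, and 0.20 in KO cells. After rescaling by the median of ratios the tolerized value of each of the 3 lay below the LPS value in both genotypes, with Il10 at -1.37 and -0.53, Socs1 at -0.50 and -1.45 and Tnip1 at -0.56 and -0.45 in WT and KO cells.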

How the results depend on the processing

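Libraries could not be paired by replicate, because each group is 1 library and the labels carry no replicate numbers. Through its 2 terms the limma fit compared conditions within genotype and genotypes within condition. With the median of ratios the tolerized against LPS comparison had 2 falls among the 9 (1 as deposited), Tnip1 turned to -0.51, and by size 3 regulators were lower in WT, 3 lower in KO and 1 higher in KO cells. In tolerized KO against WT cells 2 regulators, not 1, were 2-fold higher with the median of ratios, with TPM and with a pseudocount of 0.1. Without the filter on low genes 0 of the 9 fell from LPS to tolerized cells and 4, not 7, rose from naive to tolerized cells. Leaving out each library in turn, where a condition can then rest on a lone library assumed to vary like the rest, gave 1 to 2 rises and 0 to 1 falls from LPS to tolerized cells, and 0 to 1 falls from naive to tolerized cells. The tolerized against LPS difference then ran from -0.73 to 0.018 for Il10, -1.23 to 0.49 for Socs1, -0.59 to 0.22 for Socs3 and -0.33 to 0.52 for Tnip1. The KO against WT difference ran from -0.17 to 1.12 for Socs1, -0.17 to 0.60 for Socs3, -0.030 to 0.71 for Tnip1, -0.36 to 0.34 for Irak3, -0.39 to 0.15 for Inpp5d and -0.36 to 0.21 for Zfp36, and for each of these 6 the sign turned without either naive library. With 1 naive library left out, the other has no partner of the other genotype. The difference then rests on the LPS and tolerized pairs alone, so its sign over all libraries depended on the naive pair. Why the naive pairs differed was not tested. Over all genes, rises from LPS to tolerized cells numbered 3733 as deposited, 898 rescaled, 2262 without the filter and 197 without the KO LPS library; falls there numbered 438, 941, 262 and 70. Rises and falls from naive to LPS cells were 886 and 5511 as deposited and 2292 and 2458 rescaled. Of the alternative values for counts over the 9 regulators, 15 differed from the value reported by more than 1.5 times, or went to or from 0. The other 133 did not, by that definition, and pairs of 0 and 0 are among them. For single regulators, 19 alternative differences had the opposite sign. With 1 library per group, biological spread within a group cannot be measured, and the low naive levels of Il10 and Socs1 had bounds of 37.1% and 33.8% on either side in WT cells.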

Other observations

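A few list genes stood further apart between KO and WT libraries than most of the 9 regulators, though none passed the test between genotypes. Dusp4, an ERK and JNK phosphatase, had 2.20 FPKM in naive WT and 10.4 FPKM in naive KO cells, and Dusp5 had 1.81 and 4.67 FPKM. In LPS cells Dusp4 stood at 14.7 FPKM in WT and 43.8 FPKM in KO cells, and in tolerized cells at 20.5 and 22.4 FPKM. Over the 3 pairs limma gave Dusp4 a difference of 1.15 ± 0.34 (adjusted p = 0.526) and Dusp5 one of 0.71 ± 0.18 (adjusted p = 0.464). Csf2, the growth factor GM-CSF and a tristetraprolin-bound message, had 388 FPKM in WT and 48.6 FPKM in KO cells with LPS. In tolerized cells it had 247 and 83.6 FPKM, as deposited 63.6% of the LPS level in WT and 172% in KO cells. The median-of-ratios factors were 0.750 (LPS) and 1.10 (tolerized) in WT and 0.688 and 1.08 in KO cells. Values are divided by these factors, so both shares are lower after rescaling. Mertk, a receptor for dying cells, stood at 114 FPKM in KO LPS cells and between 8.37 and 53.5 FPKM in the other 5 libraries. These genes were named after their values were seen, and each group is 1 library.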
